A study of Glycine max with 9 samples.

Results

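Soybean (Glycine max, cultivar Williams 82) leaves kept at 4 °C for 24 h were compared with leaves kept there for 1 h, to find the transcripts that moved between early and later cold. The comparison used 6 of the 9 libraries of the series, all 3 of 24 h and all 3 of 1 h. They were set against each other as 3 pairs by the replicate number in the sample titles, so that each pair holds 1 library of 24 h and 1 of 1 h. Every group was unifoliate leaf of 2-week-old seedlings raised at 20 °C under an 18 h light and 6 h dark cycle, without fertilizer or rhizobia, and each library came from at least 6 plants. Chilling started 4 h after the lights came on and ran on through the light cycle. The 24 h leaves were therefore taken 4 h after lights on, and the 1 h leaves 5 h after lights on. The 3 libraries of 0 h, taken 4 h after lights on before any chilling, did not enter the comparison and are used below only to place its genes. The 24 h leaves were also about a day older than the others. No unchilled leaves taken 5 h after lights on, or a day later, were analysed here.

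Soybean is a warm-season crop that is sensitive to chilling. In plants generally, the first hours of cold switch on transcription factors, among them the CBF/DREB1 family, and many of these early transcripts are short-lived. Later genes act on membranes, sugars and photosynthesis and are part of acclimation. Many plant transcripts also follow the circadian clock and so change with the hour of the day, and cold itself alters the clock. The identifiers in the deposited table could not be paired with gene names, so members of these families could not be picked out, and the leaf identity of the samples could not be checked against marker genes. Transcripts are therefore described by identifier, level and pattern, without a role.

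The table gave normalized read counts, that is, reads per gene scaled between libraries by the authors and rounded. Library totals were 75.0 to 81.9 M at 24 h and 71.0 to 77.9 M at 1 h. The spacing of the low values gave an estimated depth of 47.7, 67.8 and 49.5 M reads in replicates 1, 2 and 3 at 24 h, and of 26.1, 26.5 and 58.5 M at 1 h. Depth thus differed most between the times in pairs 1 and 2. Genes are called abundant below where their mean over the 6 libraries was 1000 normalized counts or more, intermediate from 100 to under 1000, and rare from 10 to under 100, the minimum tested. Replicate number 3 stood apart at both times. Of the abundant and intermediate genes, 43.3% differed by 2-fold or more between number 3 and the mean of numbers 1 and 2, and 4.43% did so between numbers 1 and 2. Results are therefore also given without that number. The labels do not say whether libraries of a time came from separate growths, so p-values measure the spread between these libraries only.

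No transcript was called different between 24 h and 1 h: 0 of 38984 genes (0%) had an adjusted p under 0.05 in limma, a linear model with moderated variances, with the replicate number as a block. The smallest adjusted p was 0.346. At an unadjusted p under 0.05 there were 2528 genes, or 6.48%, of which 1440 were higher and 1088 lower at 24 h. Where nothing differs, a share of about 0.05 of genes falls under that threshold. Without the block limma called 0 genes as well, with 40 at an unadjusted p under 0.05. Without replicate number 3 it called 0 genes, with 3605 at an unadjusted p under 0.05 and a smallest adjusted p of 0.0516. Without number 2 it called 1 gene, which was higher at 24 h (limma adjusted p = 0.0464). A single value set over 3 pairs cannot reach an exact two-sided permutation p below 0.25, so such a test could not have passed for any gene.

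The data limited how large a difference could have been missed. In the 11738 abundant genes the 95% interval of the log2 difference reached a median of 0.18, or 1.13-fold, to each side. For 97.6% of these genes the interval lay wholly inside a 2-fold change in either direction. The same held for 94.8% of the 16826 intermediate genes and for 34.5% of the 10420 rare ones. These intervals were not adjusted for the number of genes. A 2-fold difference was thus outside the interval for most abundant transcripts and inside it for most rare ones.

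The rule for naming genes took abundant and intermediate ones with the same direction in all 3 pairs, and ranked them by the smallest of their 3 pair differences. The first 2 higher at 24 h were Glyma14g37440 and Glyma09g31740, and the first 2 lower were Glyma08g41640 and Glyma18g14490. They led 4472 higher and 3766 lower candidates. The next gene in line had a smallest pair difference of 0.85 among the higher ones and -0.93 among the lower ones, on the log2 scale. By the 12th gene of each list it was 0.53 and -0.55, so few transcripts moved by much in every pair. The named genes were chosen by the same differences that are given for them below, so the sizes may be overstated. Their intervals and p-values do not allow for this choice, and an interval that excludes no difference adds no support.

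Glyma14g37440 was the most abundant of the 4. The 24 h libraries of replicates 1, 2 and 3 held 13323, 15459 and 4076 normalized counts, against 3909, 5979 and 2043 in those of 1 h. Each 24 h library stood above its 1 h partner, but replicate 3 at 24 h lay inside the range of the 1 h group, so the groups overlapped. The log2 difference was 1.77, 1.37 and 1.00 in pairs 1, 2 and 3. Its mean was 1.38 ± 0.14 (moderated SE, n = 3 pairs, 95% interval 1.04 to 1.72), or 2.60-fold. The SD of the 3 pair differences was 0.39, and the interval left out the values of pairs 1 and 3. The mean difference did not pass (limma adjusted p = 0.346), and it was 1.57 without number 3 (limma adjusted p = 0.0516). Without number 1 it was 1.18 (limma adjusted p = 0.673), and without number 2 it was 1.38 (limma adjusted p = 0.928). At 0 h the gene had 291, 455 and 185 normalized counts, so its level stood in the order 0 h, 1 h, 24 h in each replicate number.

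Glyma09g31740 had almost all of its counts in replicate number 3, which also had the smallest of its pair differences. Its 24 h libraries, in the order of the replicate numbers, held 13, 20 and 440 normalized counts, against 3, 3 and 240 in the 1 h libraries. The 24 h value was above its partner in each pair, and the groups overlapped. Its 1 h values in replicates 1 and 2 were worth about 1.10 and 1.11 reads, so those pairs rest on almost nothing. The log2 difference was 1.81, 2.39 and 0.87, with a mean of 1.69 ± 0.40 (moderated SE, n = 3 pairs, limma adjusted p = 0.668). Without number 3 the difference was 2.10 (limma adjusted p = 0.495). The level of the gene at 0 h was 3, 33 and 407 normalized counts, equal to the 1 h level in number 1 and above it in numbers 2 and 3.

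Glyma08g41640 showed the opposite course. There were 176, 134 and 37 normalized counts in the 24 h libraries of numbers 1, 2 and 3, against 514, 797 and 361 in those of 1 h. All 3 values at 24 h were below all 3 at 1 h. This was so for 349 genes, or 0.895% of those tested, and the reverse for 378, or 0.97%. The level at 24 h was 2.91-fold, 5.91-fold and 9.53-fold lower in pairs 1, 2 and 3. The mean log2 difference was -2.45 ± 0.33 (moderated SE, n = 3 pairs, 95% interval -3.27 to -1.63, limma adjusted p = 0.503). Without number 3 the difference was -2.05 (limma adjusted p = 0.337). At 0 h the gene was at 5, 0 and 2 normalized counts, or about 1.99, 0 and 1.29 reads.

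Glyma18g14490 had the same course at a higher level. Counts in the 24 h libraries were 635, 542 and 95, against 1559, 1476 and 828 in the 1 h libraries of the same numbers. All 3 values at 24 h again lay below all 3 at 1 h. The level was 2.45-fold and 2.72-fold lower in pairs 1 and 2 and 8.64-fold lower in pair 3, a mean log2 difference of -1.95 ± 0.50 (moderated SE, n = 3 pairs, 95% interval -3.65 to -0.25, limma adjusted p = 0.76). Without number 3 the difference was -1.37 (limma adjusted p = 0.0516). It was -2.28 without number 1 (limma adjusted p = 0.993) and -2.20 without number 2 (limma adjusted p = 0.928). At 0 h the gene was at 8, 12 and 8 normalized counts, so the 24 h level lay between a low 0 h level and a high 1 h level in each replicate number.

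**Figure D1:**
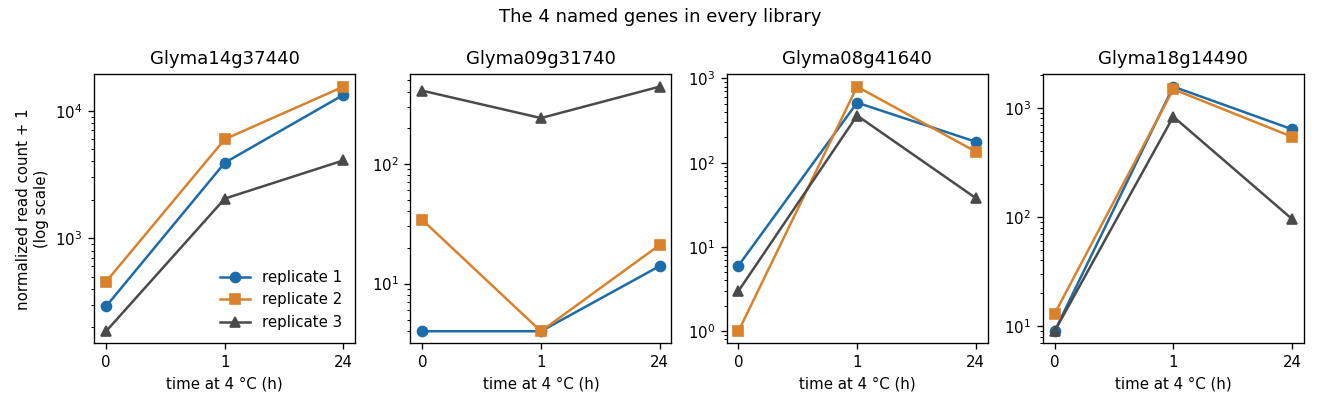
Normalized read count plus 1 (log axis) of the 4 named genes at 0, 1 and 24 h of cold, with 1 line for each replicate number. Glyma14g37440 was highest at 24 h in each number, whereas Glyma08g41640 and Glyma18g14490 were highest at 1 h and intermediate at 24 h in each number.

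Across all genes tested, the direction was the same in all 3 pairs for 5547 genes higher at 24 h (14.2%) and 5045 lower (12.9%). The remaining 28392 genes, or 72.8%, had mixed directions or a tie. Random directions would give 1 direction in all 3 pairs for a share of 0.25 of genes. The observed shares were near that, so these counts alone do not show movement. The differences were also small. Over the genes with 1 direction in all pairs, the median log2 difference was 0.19 for those higher and -0.22 for those lower. Under equal library totals the median of all genes was -0.10 on the log2 scale and the split was 2209 higher to 11967 lower, against a median of -0.00011 with the counts as deposited. The balance of directions over all genes thus depended on the scaling.

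Larger differences that held in every pair were rare. At least 2-fold in each pair were 9 genes higher (0.0231%) and 19 lower (0.0487%) at 24 h. Which direction held more of them depended on the processing, with 2 higher and 23 lower under equal library totals and 172 higher and 110 lower with no filter on low values. At least 1.5-fold in each pair were 95 higher (0.244%) and 99 lower (0.254%), and 0 genes were 4-fold apart in every pair. In a single pair such differences were common. In pairs 1, 2 and 3, 2416, 3012 and 1776 genes differed by 2-fold or more, and 4247 genes did so in exactly 1 pair. Most genes that moved by 2-fold thus did so in 1 replicate number only.

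Most of these genes were rare. Of the 28 genes 2-fold apart in all pairs, 26 were rare, and 20 had fewer than 3 estimated reads in at least 1 of the 6 libraries. The 2 others were Glyma08g41640 and Glyma18g14490, both lower at 24 h. In pair 2, with the largest gap in depth, 22.4% of the rare genes differed by 2-fold, compared with 14.7% in pair 3, where the depths were closest. In the abundant genes the shares were 1.27% in pair 2 and 0.665% in pair 3. The part of depth in these shares was not tested.

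A difference seen in one pair said little about the next. Across the 28564 abundant and intermediate genes, which are not independent replicates, the log2 differences of pairs 1 and 2 correlated at 0.11, those of pairs 1 and 3 at -0.07 and those of pairs 2 and 3 at -0.04. In the abundant genes alone these values were 0.21, -0.23 and -0.04. The spread of the differences was smallest in pair 3, with an SD of 0.25 over the abundant and intermediate genes, compared with 0.34 in pair 1 and 0.38 in pair 2.

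**Figure D2:**
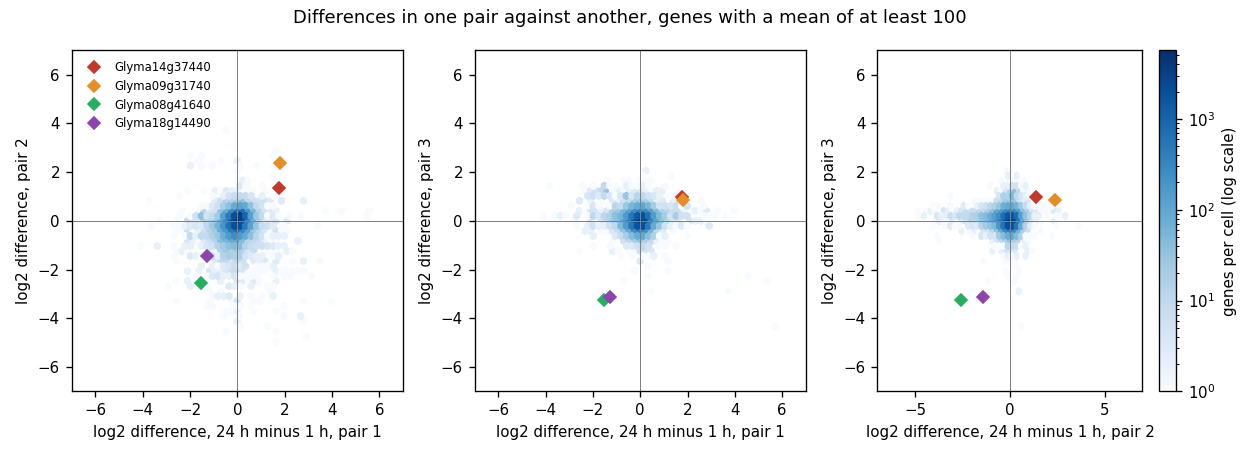
Log2 difference, 24 h minus 1 h, of each abundant or intermediate gene in one pair (horizontal) against another (vertical), with colour for the number of genes in each cell on a log scale. The clouds are centred on 0 with no shared slope (correlations of 0.11, -0.07 and -0.04), and the named genes (diamonds), which were chosen for 1 direction in all pairs, lie at the upper right if higher and at the lower left if lower.

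The most abundant transcripts mostly shared a direction. Of the 100 genes with the highest mean over the 6 libraries, 78 were higher at 24 h in all 3 pairs and 1 was lower with the counts as deposited, against 14.2% and 12.9% of all genes tested. The differences were small, with a median of 0.21 on the log2 scale, or 1.15-fold, and a range of -0.13 to 0.33. In pairs 1, 2 and 3 separately 95, 98 and 82 of the 100 were higher. None was called on its own (limma, smallest adjusted p = 0.682, with 59 of 100 at an unadjusted p under 0.05).

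These 100 genes made up 31.6%, 31.9% and 20.8% of all normalized counts in replicates 1, 2 and 3 at 24 h, against 29.7%, 28.4% and 19.9% at 1 h. The share, which does not depend on the scaling between libraries, was higher at 24 h in each pair. Library totals were higher at 24 h by 3.97, 8.14 and 3.99 M in pairs 1, 2 and 3, and these 100 genes held 2.60, 5.15 and 1.53 M of that gain. With equal library totals 54 of the 100 were still higher in all 3 pairs and 1 was lower. After quantile normalization, which gives every library the same distribution by construction, 14 were higher and 8 lower and the median difference was -0.0062. Chosen on the 0 h libraries instead, which share 95 genes with this choice, the 100 most abundant had 77 higher and 0 lower.

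The tilt towards 24 h faded with falling abundance. In ranks 101 to 1000, 37.2% were higher in all pairs and 4.89% lower. In ranks 1001 to 5000 the shares were 20.6% and 9.65%, and below rank 20000 they were 11.2% and 13.7%. With equal library totals the ranks from 101 to 1000 had 149 genes higher and 188 lower, so the tilt there turned with the scaling, whereas the first 100 kept it under equal totals and lost it under quantile normalization.

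**Figure D3:**
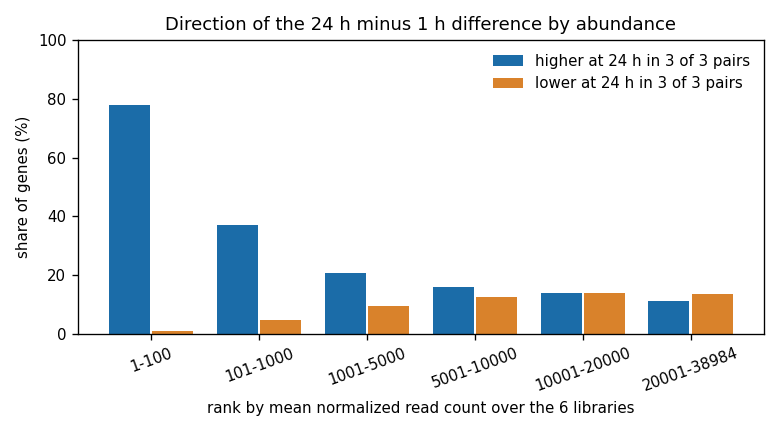
Share of genes (percent) higher (blue) or lower (orange) at 24 h than at 1 h in all 3 pairs, by rank of the mean normalized read count over the 6 libraries, with the counts as deposited. Of the first 100 genes 78% were higher and 1% lower, and the shares meet near rank 10001 to 20000, at 13.9% and 13.8%; with equal library totals ranks 101 to 1000 had 149 higher and 188 lower genes.

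The hour of the day differed by 1 h between the compared groups, and the 0 h libraries show how the leaves of the same hour as 24 h stood. Over the abundant genes the median absolute log2 difference between 24 h and 1 h was 0.11, 0.13 and 0.09 in replicate numbers 1, 2 and 3. Between 24 h and 0 h, taken at the same hour, it was 0.16, 0.16 and 0.17. Between 1 h and 0 h it was 0.18, 0.14 and 0.16. In every number, the pair of chilled times was closer than the pair that shared its hour. The 3 measures share libraries, and the 0 h libraries had an estimated 29.6, 18.0 and 52.2 M reads, and the part of depth in these distances was not tested.

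Gene by gene the same order was found. The 24 h level was nearer to the 1 h level than to the 0 h level in all 3 numbers for 30.5% of the abundant genes, and nearer to the 0 h level in all 3 for 6.3%. Over all genes tested the shares were 22.1% and 7.45%. In replicate numbers 1, 2 and 3 taken singly, 24 h was nearer to 1 h for 61.8%, 56.4% and 71.9% of the abundant genes. Within each number, the majority of the abundant genes thus stood closer at 24 h to 1 h than to 0 h, but only 30.5% did so in all 3. For the 100 genes of highest mean, the median of the signed log2 differences was 0.05 for 24 h minus 0 h and 0.21 for 24 h minus 1 h. Signed medians are another measure than the distances and nearness above and cannot be set directly against them. The distances and shares used the counts as deposited, and the part of the scaling in them was not tested.

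**Figure D4:**
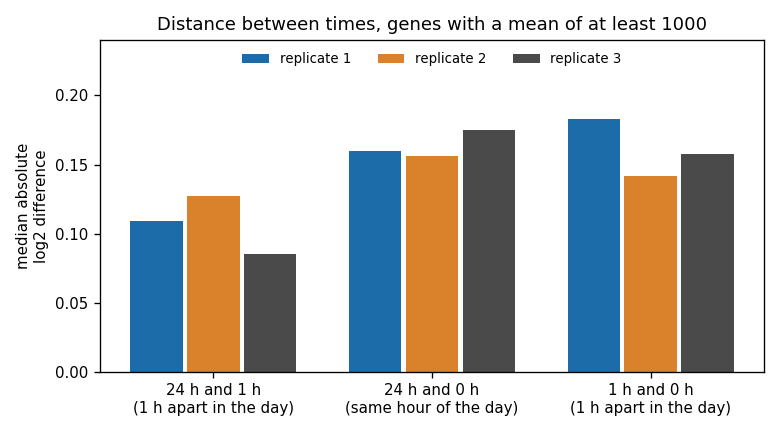
Median absolute log2 difference between times within each replicate number (bars), over the 11738 abundant genes. The bars for 24 h and 1 h (0.11, 0.13 and 0.09) are lower than those for 24 h and 0 h, which share the hour of the day (0.16, 0.16 and 0.17).

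For the transcripts that differed between 24 h and 1 h in every pair, the place of the 0 h level varied. Among the 28 genes 2-fold apart in all pairs, the 0 h level was nearer to 24 h in all 3 numbers for 7 (25%) and nearer to 1 h in all 3 for 3. Of all 10592 genes with 1 direction in every pair, whatever the size, 2324 (21.9%) were nearer to 24 h and 2483 nearer to 1 h. By the mean over the 3 numbers, 15 of the 28 genes lay nearer to 24 h and 13 nearer to 1 h. Among the 95 genes at least 1.5-fold higher, 17.9% had a mean 0 h level beyond that of 24 h, 60% between 24 h and 1 h, and 22.1% beyond 1 h. Among the 99 genes at least 1.5-fold lower, these shares were 28.3%, 57.6% and 14.1%. The level at 24 h thus lay between those of 0 h and 1 h in 28.3% of the genes that were lower and 17.9% of those that were higher. These genes were chosen for a wide gap between 24 h and 1 h, which by itself makes room for 0 h in between. Of the 95 higher genes 88 were rare, and of the 99 lower ones 90. At a mean of at least 100, 0 h lay in between for 42.9% of the 7 higher and 44.4% of the 9 lower genes. For all genes lower in every pair, whatever the size, the shares beyond 24 h, in between and beyond 1 h were 31.2%, 33.2% and 35.6%. For all genes higher they were 32.3%, 36.5% and 31.2%. The abundant genes that were lower in every pair differed from this, with shares of 25.7%, 24.5% and 49.8%, so 0 h was most often beyond 1 h and the levels stood in the order 0 h, 1 h, 24 h from high to low. With equal library totals these shares were 29.4%, 34.5% and 36.1%.

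Among the 16 abundant or intermediate genes that were 1.5-fold apart in every pair, 5 kept 1 order of the 3 times with 0 h lowest in all 3 numbers. In 3 of the 9 lower genes, Glyma08g41640 and Glyma18g14490 among them, 1 h was highest. In 2 of the 7 higher genes, with Glyma14g37440 as one, 24 h was highest. In 1 more of the higher genes 0 h lay between the others in each number, and the other 10 changed order between numbers.

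**Figure D5:**
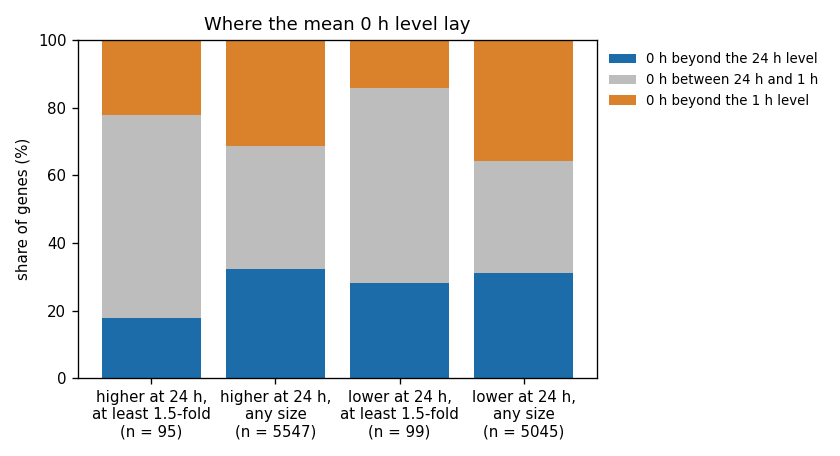
Share of genes (percent) whose mean 0 h level lay beyond the 24 h level (blue), between 24 h and 1 h (grey) or beyond the 1 h level (orange), for genes higher or lower at 24 h in all 3 pairs. Among genes at least 1.5-fold apart, mostly rare and chosen for a wide gap, 0 h lay in between for 60% (higher) and 57.6% (lower). At a mean of at least 100 these shares were 42.9% and 44.4%. Over all sizes each place held 31.2% to 36.5%, although 49.8% of the abundant lower genes had 0 h beyond 1 h.

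The values of the named genes bear on the hour in different ways. On the log2 scale, Glyma14g37440 stood 5.02 higher at 24 h than at 0 h, at the same hour of the day, and 3.64 higher at 1 h than at 0 h. Glyma08g41640 and Glyma18g14490 were 5.21 and 4.98 higher at 24 h than at 0 h, and 7.66 and 6.93 higher at 1 h than at 0 h. For these 3 genes, the difference from leaves of the same hour was larger than that between 24 h and 1 h. At 0 h, however, Glyma08g41640 had about 1.99, 0 and 1.29 reads, and Glyma18g14490 about 3.18, 2.90 and 5.16. The size of their differences from 0 h therefore depends on the 1 count added to each value. For Glyma09g31740 the 24 h level was 0.41 higher than that of 0 h and the 1 h level 1.28 lower than it, as means over the 3 numbers. In number 1 the 24 h level was equally far from both, in number 2 the 1 h value was worth about 1.11 reads, and only number 3 brought the gene over the minimum mean of 100, so no placement is drawn from it. The 100 most abundant genes had a median of 0.05 for 24 h minus 0 h and of -0.15 for 1 h minus 0 h, so with the counts as deposited their median was lower at 1 h than at either time that shared an hour. By their share of all normalized counts, the 0 h libraries had 29.8%, 29.7% and 20.6% in replicates 1, 2 and 3. The 1 h share was again the lowest of the 3 times in each number, though in number 1 only just, at 29.7%. The 0 h share was nearer to 1 h in numbers 1 and 2 and nearer to 24 h in number 3. Which time 0 h stood nearer to thus varied with the measure and the number. Time in the cold, the hour of the day and a day of growth all changed together between these groups and cannot be told apart in this design.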

How the data were processed

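The authors deposited 1 normalized read count (a score) per gene and library, rounded to whole numbers. The tools cutadapt 1.2.1 and DESeq 1.12, appear without a role in the submitters' processing notes. Not given in the sources used here are the aligner, the counter, the build, the annotation and the handling of reads shared by near-identical genes, which leaves the value of any 1 identifier uncertain by that much. Of 49777 genes, 38984 averaged 10 or more in the 6 libraries and were analysed as log2(score + 1), a scale that understates the change of low genes. They were tested with limma 3.58.1 in R 4.3.3 (replicate number as a block, trend and robust moderation, two-sided, Benjamini-Hochberg over all 38984, threshold 0.05), after a test on simulated data. The fit of the 6 libraries with the block follows the pairing given for this comparison.

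Deviations from the mean of each time correlated between the 2 libraries of a number (0.94, 0.89 and 0.98 across genes for numbers 1, 2 and 3). Between numbers 1 and 2 these correlations were 0.45 and 0.61, and the difference of number 1 from number 2 at 24 h correlated at 0.78 with that at 1 h. Between number 3 and the others the correlations were -0.89 to -0.73. Because number 3 stood apart at both times, part of the values within a number was fixed by it. The pairing was set by the replicate numbers in the sample titles. What a number shares is not stated in the labels. The worth of 1 read was read from the spacing of scores up to 40, and depth is the total divided by it. Of those scores, 83.3% to 95.4% in a library lay on the fitted spacing, so depths and read numbers are approximate. Because the scores are not whole reads, no count test was run. Of 59048 RefSeq genes (Glycine_max_v4.0), 0 matched an identifier, so gene lists by name were not used and at most 2 higher and 2 lower genes were named, by the rule stated with them. The members and rules were chosen with earlier results of these data known, and the groups by abundance and the distances between times after the data were seen. Figures were made with Python 3.11.15, pandas 2.3.3 and matplotlib 3.10.9.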

Additional observations from a re-analysis of the deposited data

How the results depend on the processing

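Without a replicate block limma called 0 genes, as with it, and the unadjusted count was 40 instead of 2528; the block changed no other call. The count was also 0 under both pseudocounts, both filters, equal library totals, quantile normalization, no trend or robust moderation, and all 9 libraries in 1 fit with or without the block, and 0 to 1 without 1 replicate number, with the 1 without number 2. The 28 genes 2-fold apart in every pair became 5 with a pseudocount of 5, 282 with no filter, 2 at a mean of at least 100, 194 at 1.5-fold and 0 at 4-fold. The genes numbered 57 where, instead of the pairs, the 3 values of each time had to be apart and the means at least 2-fold apart. They became 166 to 428 without 1 replicate number (211, 166 and 428 without numbers 1, 2 and 3), where only 2 pairs had to pass. The share of these genes with 0 h nearer to 24 h in every number was 25% (exact 95% binomial interval 10.7% to 44.9%, counting error only). That interval treats genes of the same libraries as independent, which they are not. The share was 16% (4 of 25) with equal library totals, 16.3% (46 of 282) with no filter, and 40% (2 of 5) with a pseudocount of 5. It was 53.6% by the mean, 100% of the 2 genes at a mean of at least 100, and 25.9% to 35.7% without 1 number. Over all genes with 1 direction in every pair it was 21.9%. Of the genes at an unadjusted p under 0.05, 57% were higher as deposited and 10.4% with equal library totals. The 4 named genes kept their direction in 13 of 13 alternatives each, and none passed in any. They were chosen for 1 direction in every pair of these same libraries, so the kept direction was largely fixed in advance and adds no support. Leaving out 1 library of a pair equals leaving out the number in the paired fit. The gene list alternatives were not run because no identifier had a name, nor the placement of 0 h under quantile normalization of the 6 libraries, which leaves 0 h out.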

Other observations

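Of all 49777 genes, a further 71 were listed above 0 in all 3 libraries at 24 h and at 0 in all 3 at 1 h. The reverse was seen for 16 of the 49777. All were close to the limit of detection: the highest mean was 6.67 normalized counts among the 71 and 9 among the 16. The 24 h libraries of replicates 1 and 2 were also the deeper ones, with an estimated 47.7 and 67.8 M reads, against 26.1 and 26.5 M at 1 h, and the part of depth in these counts was not tested.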
